A study of Mus musculus with 2 samples.

Results

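Fas, Fadd, Casp8, Cflar, Apaf1, Casp9, Xiap and Birc2, 8 genes that start or restrain the caspase cascade, were read in Langerhans cells of mice with and without a working Il34 gene. The members were chosen by name and are represented by 11 probe sets that carry a single gene symbol, out of 34760 probe sets and 19937 genes with such a probe set. Although the set was named for caspases and their inhibitors, it holds 2 caspases (Casp8 and Casp9), 2 inhibitors of apoptosis (Xiap and Birc2), the caspase-like regulator Cflar and the receptor and adaptor proteins that recruit the initiators. The compared animals were Il34+/LacZ mice, which keep 1 working copy of Il34 beside an allele carrying LacZ, and Il34LacZ/LacZ mice, in which both copies carry it. Both genotypes were 8 to 12 weeks old, both received ultraviolet light for 30 min, and cells positive for Langerin and Epcam were sorted from both 21 days later; no unexposed mice and no wild-type mice were analysed here. Each genotype was read on 1 array, from 2 ng of total RNA, and the labels do not say how many animals gave that RNA. With n = 1 per genotype no test between genotypes is possible and no value below has a replicate error.

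Keratinocytes make IL-34, which signals through the CSF1 receptor, and mice lacking it have few Langerhans cells in undisturbed epidermis. Caspases are proteases that dismantle a cell during apoptosis. On the death receptor route, Fas binds its ligand and gathers the adaptor FADD and procaspase-8, and cFLIP, the product of Cflar, sits in the same complex and limits or shapes caspase-8 activity. On the mitochondrial route, cytochrome c released into the cytosol makes APAF1 assemble into the apoptosome, which activates caspase-9. XIAP binds and blocks caspases directly, whereas cIAP1, the product of Birc2, acts mainly as a ubiquitin ligase in TNF receptor signalling.

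The promoters of 4 members are shown because these genes stood furthest from 0 among the members as deposited. Each run holds the 250 bases before a gene start, 5′ to 3′ on the strand of the gene, from RefSeq on GRCm38.p6. Capitals mark matches to any of 7 motifs searched on both strands.
Cflar, chr1:58711241-58711490, plus strand: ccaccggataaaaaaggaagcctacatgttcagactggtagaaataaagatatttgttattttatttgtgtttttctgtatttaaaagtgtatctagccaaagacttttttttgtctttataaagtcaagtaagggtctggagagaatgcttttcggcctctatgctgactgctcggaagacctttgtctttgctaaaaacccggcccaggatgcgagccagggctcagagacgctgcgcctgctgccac
Casp8, chr1:58802252-58802501, plus strand: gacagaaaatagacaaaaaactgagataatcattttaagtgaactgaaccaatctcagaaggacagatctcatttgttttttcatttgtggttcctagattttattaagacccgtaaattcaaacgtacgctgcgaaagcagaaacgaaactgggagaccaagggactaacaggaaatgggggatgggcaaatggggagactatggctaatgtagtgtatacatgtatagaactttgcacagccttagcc
Xiap, chrX:42068148-42068397, plus strand: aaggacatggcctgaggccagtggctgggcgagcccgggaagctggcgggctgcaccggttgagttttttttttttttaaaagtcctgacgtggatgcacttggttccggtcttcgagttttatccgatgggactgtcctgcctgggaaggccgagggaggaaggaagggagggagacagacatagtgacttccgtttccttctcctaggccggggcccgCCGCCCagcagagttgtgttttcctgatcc
Birc2, chr9:7837058-7837307, minus strand: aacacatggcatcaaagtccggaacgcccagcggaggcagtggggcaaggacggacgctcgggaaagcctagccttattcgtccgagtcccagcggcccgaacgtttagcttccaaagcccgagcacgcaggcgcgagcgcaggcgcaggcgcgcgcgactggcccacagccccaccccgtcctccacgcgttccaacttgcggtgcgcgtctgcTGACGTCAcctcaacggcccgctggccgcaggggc

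The motifs were SP1 (GGGCGG), CRE (TGACGTCA), AP-1 (TGANTCA), GAS (TTCNNNGAA), ETS (CCGGAAGT) and, by name, the NF-kB consensus and the p53 half-site; SP1 was found in 32.7% of all 32851 RefSeq windows of this length, CRE in 1.55%, AP-1 in 6.75%, GAS in 7.02%, ETS in 2.88%, the NF-kB consensus in 7.25% and the p53 half-site in 7.13%. All 8 members had a window, 11 in total, because Xiap has 3 annotated starts and Birc2 has 2. No match lay in the Cflar and Casp8 windows, nor in 1 of the 3 Xiap windows. The Xiap window printed above held 1 SP1 match, and the printed Birc2 window held 1 CRE match, 35 bases before the start; the second Birc2 window held 2 SP1 matches and the remaining Xiap window 1. The Fas window held an AP-1, a GAS and an SP1 match, and the windows of Apaf1, Casp9 and Fadd held only SP1 matches, 2, 4 and 2 of them; no match overlapped another. GC content was 42.8% in the Cflar window and 39.6% in the Casp8 window, below the median of 52.4% over all windows, and ran from 56.4% to 75.6% in those of Fas, Fadd, Casp9 and Apaf1. A match is a string of letters and no measured binding site.

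Intensities are the deposited values on a linear scale, and differences are log2(intensity + 16), Il34LacZ/LacZ minus Il34+/LacZ. A fold is computed on that scale and understates the change of dim genes. The floor was the median intensity of both arrays pooled, 48.7, and 12843 genes that reached it on at least 1 array are called measured. Where a gene had several measured probe sets (614 genes), their log2 differences varied around the mean of the gene with an SD of 0.62, or 1.54-fold, called the probe set SD. This is the only error the data hold, and it covers probes, not animals, sorts or amplifications. The difference also depended on the level: the typical gene differed by 0.31 at an intensity of 50, by -0.12 at 100, by -0.38 at 150 and by -0.56 at 250. Each member is therefore also given after that loess trend was subtracted, called detrending below, and beside the 500 measured genes closest to it in level.

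The sorted cells carried the Langerhans cell markers on both arrays. All 12 fixed markers were measured, and their summed intensity was 37265 in the Il34+/LacZ sample and 29852 in the Il34LacZ/LacZ sample. Cd207, the Langerin gene, read 3153 against 1852. Of the 12, 11 read lower in Il34LacZ/LacZ, as did 56.3% of all measured genes, and Epcam read higher, 632.9 against 707.7. Once the trend with level described above was subtracted, 4 of the 12 were below 0. Some markers of other skin cells were measured too. The summed intensity of 11 keratinocyte markers was 4905 against 790, that of 9 listed monocyte, macrophage and neutrophil markers 1209 against 3630, and that of 4 listed T cell markers 4390 against 4143. Of the 9 monocyte, macrophage and neutrophil markers, 5 were at least 1.5-fold higher in Il34LacZ/LacZ. Adgre1, another of the 9, was that much lower, at 281.0 against 144.6. The 5 dermal dendritic cell markers summed to 1525 against 825, of which Itgae alone gave 1082 and 479. Of these markers 3 were measured, Xcr1 and Clec9a being below the floor on both arrays. The 5 fibroblast and endothelial markers summed to 224 against 392, and 3 of them were measured, Pdgfra and Pecam1 being below the floor on both. Genes below the floor also add to these sums, so a sum above 0 does not show that a cell type was present. In bulk RNA, fewer cells of a type and less RNA per cell cannot be told apart, and the part of these other cells in the readings below was not tested.

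All 8 members were measured, and each probe set of each member was above the floor on both arrays. The readings of 7 of the 8 genes were lower in Il34LacZ/LacZ, as were those of 56.3% of all measured genes. A fall of 1.5-fold or more in Il34LacZ/LacZ was seen for Cflar, Xiap and Casp8, and no member was that much higher; of all measured genes, 28.2% were that much lower and 9.36% that much higher. The median difference of the members was -0.35, against -0.16 over all measured genes. After detrending, Cflar and Xiap were lower by that fold and Birc2 was higher by it, against 17.2% and 12.2% of measured genes, and the median was -0.35 against 0.03. With either a common upper quartile or quantile normalization of the arrays, 2 members were lower and 1 higher; all measured genes then split into 16.8% lower and 16.9% higher with the first, and 16.9% and 14.4% with the second. At 2-fold, Cflar and Xiap were lower as deposited, where 12.1% of measured genes were. The share of members past 1.5-fold, 3 of 8 or 37.5%, was near that of all measured genes, so it is no result about these genes as a set.

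**Figure D1:**
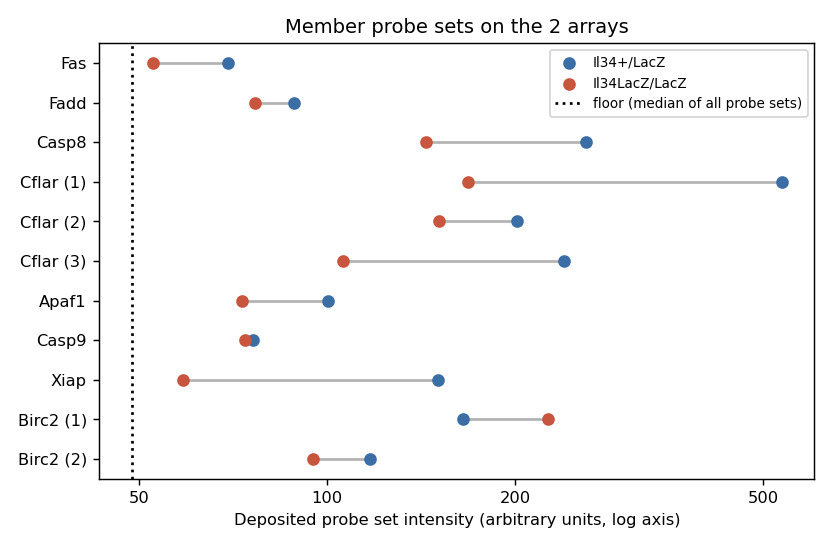
Deposited intensity (arbitrary units, log axis) of the 11 probe sets of the 8 members, 1 point per array, with blue for Il34+/LacZ, red for Il34LacZ/LacZ and the dotted line at the floor of 48.7; numbers after a name count the probe sets of a gene from the highest mean. In 10 of the 11 probe sets the Il34LacZ/LacZ point lies to the left, the exception being the brighter Birc2 probe set.

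As deposited, the death receptor and its adaptor read lower in Il34LacZ/LacZ by less than the probe set SD. Fas, the receptor through which Fas ligand triggers apoptosis, read 69.5 in the Il34+/LacZ sample and 52.6 in the Il34LacZ/LacZ sample, a difference of -0.32. After detrending that difference was -0.56, and 16.8% of the 500 genes of closest level lay below Fas. Both readings were close to the floor, and the fold was 1.25. Fadd, the adaptor that links Fas to procaspase-8, read 88.6 and 76.6, a difference of -0.18 that was -0.21 after detrending. It sat in the middle of genes of its level, with 42.0% of them lower.

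Casp8 and Cflar, which meet in the same signalling complex, were both lower. Casp8, the initiator caspase of death receptors and a brake on necroptosis, read 260.3 in the Il34+/LacZ sample and 144.0 in the Il34LacZ/LacZ sample, 1.73-fold lower. The difference of -0.79 exceeded the probe set SD, but it was -0.31 after detrending. Genes of its level had a median of -0.52, and 32.6% of them were lower than Casp8. Its reading was thus below that in Il34+/LacZ by about as much as those of many genes of similar brightness.

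Cflar was the member furthest from 0, and its probe sets did not share the size of the difference. The brightest probe set read 535.6 in the Il34+/LacZ sample and 168.2 in the Il34LacZ/LacZ sample, 2.99-fold lower, a difference of -1.58 that was -0.99 after detrending. Of the 500 genes of closest level, 5.40% were lower still. A second probe set, which the platform annotation also links to 4 RefSeq transcripts of the gene, read 201.9 and 151.4, a difference of -0.38 that turned to 0.06 after detrending. The remaining Cflar probe set read 239.3 and 106.3, a difference of -1.06, or -0.66 after detrending. All 3 read lower in Il34LacZ/LacZ as deposited, with a mean of -1.01 and an SD of 0.60 among them. Which isoform of cFLIP each probe set reads was not determined.

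Cflar and Casp8 lie next to each other on chromosome 1, with no protein-coding gene between them in the RefSeq table. The Casp8 to Cflar ratio was higher in Il34LacZ/LacZ by 0.79 (log2) with the brightest Cflar probe set, and by 0.68 after detrending. With the Cflar probe set at -0.38 the ratio was lower instead, as Casp8 was at -0.79, so its direction depends on the probe set. An SD of 0.88 applies to such a difference of differences, so the pair changed unequally by less than probe sets of the same gene disagree.

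The 2 apoptosome genes differed little. Apaf1, the scaffold of the apoptosome, read 100.3 in the Il34+/LacZ sample and 73.2 in the Il34LacZ/LacZ sample, a difference of -0.38 before and after detrending, and 31.4% of genes of its level were lower. Casp9, the caspase that this scaffold activates, read 76.2 and 74.0, a difference of -0.03 that was -0.14 after detrending. These Casp9 readings were the closest pair among the 11 probe sets. Neither gene passed the probe set SD, which does not show that their levels were equal in the animals.

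The 2 inhibitors of apoptosis pointed in opposite directions only by the brighter Birc2 probe set. The dimmer Birc2 probe set read lower in Il34LacZ/LacZ, at -0.26, as Xiap did. Xiap, whose product blocks caspases by direct binding, read 150.4 in the Il34+/LacZ sample and 58.9 in the Il34LacZ/LacZ sample, 2.22-fold lower. Its difference of -1.15 was -1.07 after detrending. Genes of its level had a median of -0.09, and 8.40% of them were lower. Xiap was the member whose difference was least altered among those past 1.5-fold when the level was taken into account. It rests on 1 probe set, and the lower reading is close to the floor.

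Birc2 was the only member with a higher reading in Il34LacZ/LacZ, and its 2 probe sets disagreed in direction. The brighter probe set read 165.3 in the Il34+/LacZ sample and 226.1 in the Il34LacZ/LacZ sample, a difference of 0.42 that became 0.90 after detrending, with 90.6% of genes of its level below it. The platform annotation links this probe set to a single cDNA clone and to no RefSeq transcript. The dimmer probe set, linked to a RefSeq transcript of Birc2, read 117.4 and 95.2, a difference of -0.26, or -0.10 after detrending. Chosen after these values were seen, a rule that keeps only probe sets with a RefSeq transcript turns Birc2 to -0.26, so all 8 members then read lower. The Xiap difference minus that of the brighter Birc2 probe set was -1.57, beyond the SD of 0.88 for a difference of differences, but this gap depends on the choice of Birc2 probe set.

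**Figure D2:**
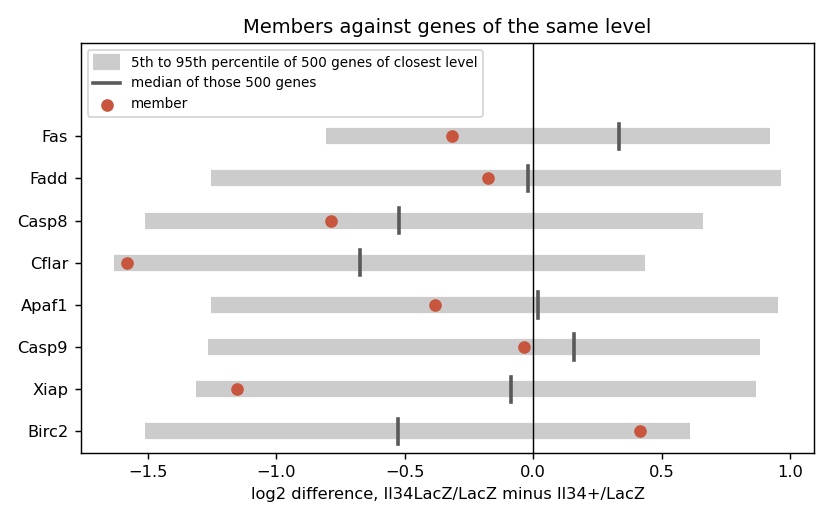
Log2 difference of each member (red point, Il34LacZ/LacZ minus Il34+/LacZ, brightest probe set) over the 5th to 95th percentile (grey bar) and the median (dark tick) of the 500 measured genes closest to it in level. All 8 points fall inside their grey bars; Cflar at -1.58 lies near the lower end and Birc2 at 0.42 near the upper end.

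No member left the band between the 5th and the 95th percentile of genes of its level. The band ran from -1.63 to 0.44 for Cflar, from -1.31 to 0.87 for Xiap and from -1.51 to 0.61 for Birc2. The members varied among themselves with an SD of 0.64 as deposited and 0.61 after detrending, against 0.72 and 0.64 over all measured genes. The spread among the 8 genes was thus about that of any measured genes. Near the floor the 500 neighbours are themselves shaped by the floor, since a dim gene counts as measured only if 1 array reached it.

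**Figure D3:**
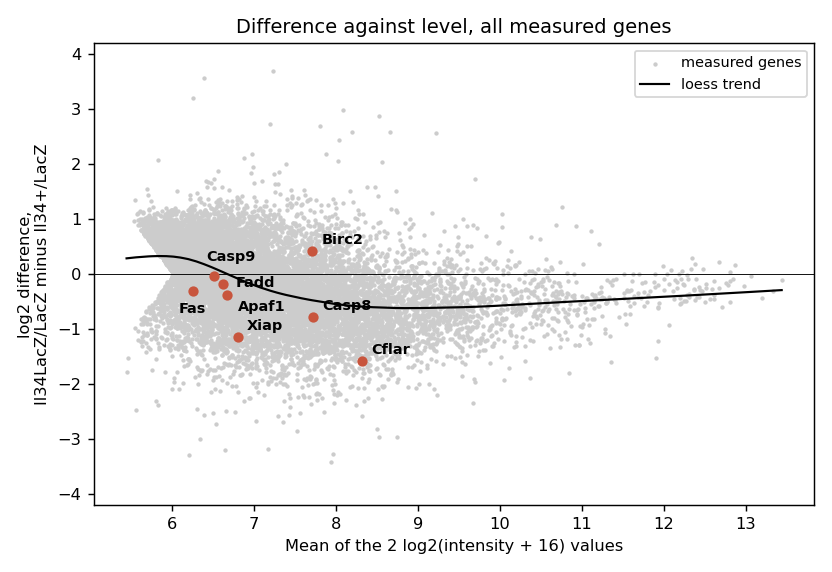
Log2 difference (Il34LacZ/LacZ minus Il34+/LacZ) against the mean of both log2(intensity + 16) values for 12843 measured genes (grey), with the loess trend (black line) and the 8 members (red). The trend is above 0 for the dimmest genes and below 0 from 100 intensity units on, and Casp8 lies near it; Cflar and Xiap lie below it and Birc2 above it.

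Other genes of caspase signalling showed how the rest of the cascade read. Of 46 genes listed, 42 had a probe set with a single symbol, and the others were not analysed here. Among the 38 measured, 19 were lower by 1.5-fold or more on the Il34LacZ/LacZ array and 1 was higher by as much, and the median was -0.58; the shares over all measured genes were 28.2% and 9.36%, and the median -0.16. After detrending, 12 were that much lower and 3 that much higher, and the median was -0.30, against 17.2% and 12.2% of measured genes. The split was 9 lower to 3 higher with a common upper quartile and 14 to 4 with quantile normalization. The list was chosen with earlier results of these arrays known, so its counts are a description.

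Of the other caspases with a probe set, 4 were measured and all 4 read lower, as did 56.3% of all measured genes. Casp2, a caspase linked to DNA damage and mitotic errors, read 241.0 and 95.8, 2.30-fold lower. Casp6, an executioner caspase, read 227.6 and 102.8, 2.05-fold lower. Casp1, the inflammasome protease that matures interleukin-1 beta, read 104.1 and 62.7, 1.53-fold lower. These 3 stayed past 1.5-fold after detrending, at -0.81, -0.65 and -0.66. Of all measured genes, 28.2% were that much lower as deposited and 17.2% after detrending. Casp4, the intracellular sensor of lipopolysaccharide, read 56.3 and 33.3, below the floor in Il34LacZ/LacZ, and was at least 1.12-fold lower. Both Casp4 readings carry the unexplained decimal offset described under the other observations. Casp12 and Casp14 were below the floor on both arrays; Casp14, a protease of cornifying keratinocytes, read 13.7 and 19.4, while 9 of the 10 measured keratinocyte markers, the basal Krt14 and the suprabasal Krt1 and Krt10 among them, fell by 1.5-fold or more.

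The 6 other measured inhibitor of apoptosis genes all read lower. Of all measured genes, 56.3% read lower, 28.2% by 1.5-fold or more. The brighter Birc2 probe set read higher, whereas the RefSeq-linked Birc2 probe set read lower as well, at -0.26. Birc3, which encodes cIAP2 and lies next to Birc2 on chromosome 9, read 388.0 in the Il34+/LacZ sample and 141.5 in the Il34LacZ/LacZ sample, 2.56-fold lower, with -0.81 left after detrending. Birc5, the gene of survivin, which acts mainly in mitosis, read 297.4 and 121.5, 2.28-fold lower and -0.71 after detrending. Birc6, a giant ubiquitin-conjugating inhibitor, read 262.1 and 160.3, 1.58-fold lower but only -0.16 after detrending. The Naip genes, sensors of bacterial flagellin and secretion system proteins, are near-identical copies, so their readings are uncertain and may not be separate. Naip2 read 109.9 and 49.8, Naip5 106.5 and 71.1, and Naip6 86.2 and 34.5, or 1.91-fold, 1.41-fold and at least 1.58-fold lower. Among genes that modulate survival, Faim, which protects from Fas-induced death, was 1.67-fold lower at 146.2 and 81.2, but at -0.55 after detrending it no longer passed 1.5-fold.

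All 10 measured proximal death receptor genes read lower, as did 56.3% of all measured genes. Of the 10, 5 were lower by 1.5-fold or more, against 28.2% of all measured genes. The TNF receptor gene Tnfrsf1a read 623.3 and 364.3, 1.68-fold lower, and its adaptor Tradd 105.8 and 54.1, 1.74-fold lower. The deubiquitinase gene Cyld read 358.4 and 192.0, 1.80-fold lower. Sharpin and Rbck1, both subunits of the linear ubiquitin ligase complex, were 2.03-fold and 1.56-fold lower, at 358.6 against 168.5 and 259.2 against 159.8. Of these 5, Tradd alone stayed past 1.5-fold after detrending, at -0.89. By that measure 8 of the 10 genes were below 0, and 17.2% of all measured genes were at least 1.5-fold lower. Rnf31, the other listed subunit of the linear ubiquitin ligase complex, read 243.9 and 202.7, a difference of -0.25 that was 0.28 after detrending. Fasl, the ligand of Fas, read 110.8 and 90.6, a difference of -0.25.

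Mitochondrial factors split in direction. Of the 7 measured, 3 were at least 1.5-fold lower and 1 was that much higher, against 28.2% and 9.36% of all measured genes. After detrending, 3 were that much lower and 2 that much higher, against 17.2% and 12.2%. Diablo, an antagonist of XIAP, read 112.7 and 64.7, 1.60-fold lower, and the protease gene Htra2 252.1 and 109.6, 2.14-fold lower. Aifm1, a mitochondrial flavoprotein that can leave for the nucleus in cell death, was 1.78-fold lower at 113.0 and 56.4. Diablo, Htra2 and Aifm1 stayed past 1.5-fold lower after detrending, at -0.67, -0.67 and -0.88. Cycs, the gene of cytochrome c, was the 1 gene of the list at least 1.5-fold higher: its brightest probe set read 402.8 and 672.8, 1.64-fold higher, or 1.34 (log2) after detrending. Both readings of this probe set carry the unexplained decimal offset described under the other observations. A second Cycs probe set read 198.3 and 183.5, a difference of -0.10 that was 0.37 after detrending, and the remaining probe set was below the floor on both arrays. As deposited the direction thus depends on the probe set chosen, whereas the detrended differences of the 2 measured probe sets are both above 0. After detrending, Apip, an inhibitor of the apoptosome, at 0.74 and Dffa, the inhibitor of the apoptotic nuclease, at 0.73 were the other 2 genes past 1.5-fold higher.

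Of 7 measured caspase substrates and executors, 5 read lower, as did 56.3% of all measured genes. Of the 7, 2 were lower by 1.5-fold or more, a share of 28.6% beside 28.2% of all measured genes. Gsn, the actin-severing gelsolin, read 1135 and 444.1, 2.50-fold lower, and the channel gene Panx1 207.1 and 127.8, 1.55-fold lower. Gsn stayed past 1.5-fold after detrending, at -0.72, and Panx1 was at -0.22. Of the necroptosis genes, Mlkl was below the floor on both arrays, and Ripk3, the kinase that caspase-8 restrains, read 70.9 and 106.3, a difference of 0.49 within the probe set SD.

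**Figure D4:**
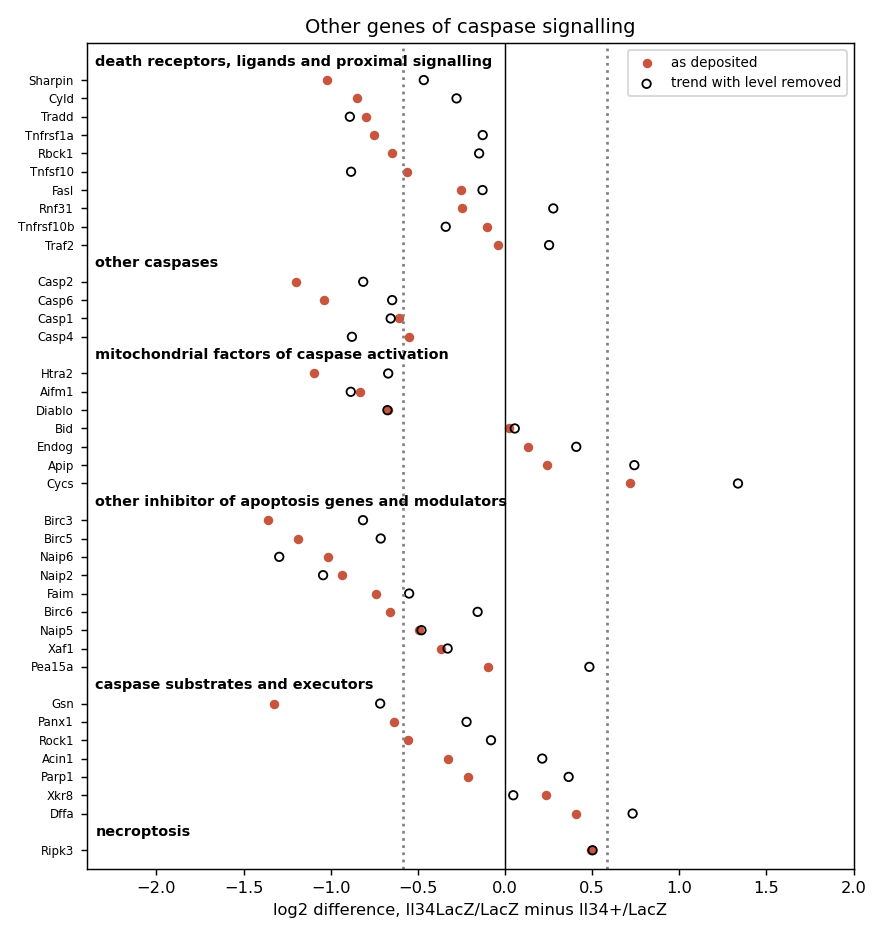
Log2 difference (Il34LacZ/LacZ minus Il34+/LacZ) of the 38 measured genes of caspase signalling by role, as deposited (filled) and detrended (open); dotted lines mark 1.5-fold. For Tnfsf10, Casp4 and Naip6, whose dimmer reading is below the floor, the plain difference is drawn, without the bound. The 4 measured caspases lie left of 0 by both measures, and Cycs lies furthest right at 0.72 and 1.34.

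Changes of processing moved the size of the member differences more than their direction. Cflar and Xiap were at least 1.5-fold lower in each of the 12 alternatives that gave a value, from -1.73 to -0.91 for Cflar and from -1.34 to -0.80 for Xiap. Apart from the mean of all probe sets, at -1.01 without detrending, these alternatives used the brightest Cflar probe set. They therefore hardly varied the probe set choice. None used alone the Cflar probe set at -0.38, which was at 0.06 after detrending. Casp8 was lower in all 12, from -0.94 to -0.27, but passed 1.5-fold in 7. Birc2 ran from -0.26 to 0.94 and passed 1.5-fold higher in 5. Fas and Apaf1 stayed below 0 in all 11 alternatives that kept them measured, and Fas passed 1.5-fold in 1 of them, at -0.65 with the 500 neighbours subtracted, whereas Casp9 and Fadd each came out above 0 in 1 of 11, at 0.21 and 0.07 with a common upper quartile.

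**Figure D5:**
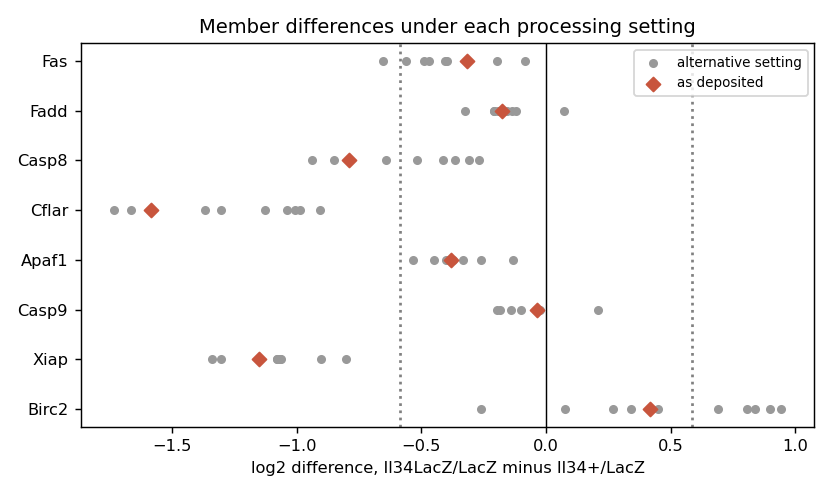
Log2 difference (Il34LacZ/LacZ minus Il34+/LacZ) of each member as deposited (diamond) and under each alternative setting that gave a value (grey points); dotted lines mark 1.5-fold. Cflar and Xiap stay left of the lower dotted line, Casp8 straddles it and Birc2 lies on both sides of 0.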

How the data were processed

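The deposited table holds linear intensity values that the authors had already summarised by probe set; per the labels' protocols, each array received biotin-labelled cRNA amplified from 2 ng. Which summary, background and scaling steps were used is not given in the sources used here, and no detection calls were used. Gene names came from the platform annotation, and the RefSeq table of GRCm38.p6 held all 8 gene numbers of the members under the same symbol. A gene was represented by its single-symbol probe set with the highest mean. Values were compared as log2(intensity + 16), with the floor, the loess trend (smoothing fraction 0.3, fitted to single-symbol probe sets) and the 500 neighbours in level as described in the report. A reading below the floor was set to it for folds and counts. All 8 members were named, as were all listed caspases and inhibitor of apoptosis genes, and otherwise pathway genes past 1.5-fold. Casp12, Casp14, Fasl, Rnf31, Apip, Dffa, Ripk3 and Mlkl were named beyond that. The members, lists and settings were chosen with earlier results of these data known. The scripts were tested on simulated data. No genes most alike in pattern were sought, since 2 arrays give no measure of likeness. Python 3.11.15, numpy 2.4.6, pandas 2.3.3 and statsmodels 0.14.6 were used.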

Additional observations from a re-analysis of the deposited data

How the results depend on the processing

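Of 168 values recomputed for the members and the pathway list, 138 moved by less than the probe set SD (for a median, that SD divided by the square root of the number of genes), or for counts by no more than 1.5 times, and 30 moved further; none called turned its direction. The count of members at least 1.5-fold higher went from 0 to 1 with a common upper quartile, with quantile normalization, with either loess fraction and with the 500 neighbours subtracted. The member median of -0.35 was -0.11 with the upper quartile and -0.97 with the floor at the 75th percentile, which left 4 members (Fas, Fadd, Apaf1 and Casp9 were below it). Cflar was at -0.91 with the neighbours subtracted, and Birc2 at -0.26 with RefSeq-linked probe sets only, a setting chosen after seeing the data. The pathway count of 19 lower was 9 with the upper quartile, 12 with the raised floor (23 genes), 7 at 2-fold, 12 with loess fraction 0.3 and 10 with a pseudocount of 64. Its count of 1 higher was 3 with the upper quartile, either loess fraction or neighbours, 4 with quantile normalization and 0 with median centring, at 2-fold or with the mean of all probe sets. The pathway median of -0.58 was -0.36 with the upper quartile, -0.73 with median centring, -0.30 and -0.31 with loess fractions 0.3 and 0.6, -0.28 with neighbours, -0.70 and -0.43 with pseudocounts 1 and 64, and -0.30 with quantile normalization. The cause was not tested. The median of all measured genes was -0.16 as deposited, 0.16 with the upper quartile, -0.33 with median centring and 0.03 with quantile normalization, and with median centring 35.6% of measured genes were 1.5-fold lower and 5.74% higher. With 1 array per genotype, no replicate could be left out. No paired analysis was possible because each genotype has 1 array and the labels carry no replicate numbers.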

Other observations

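In 581 of the 34760 probe sets, both deposited intensities lay 0.312 above a multiple of 0.5, within 0.0002, so the 2 arrays share the same offset there. Evenly spread decimals would give 0.022 such probe sets. No member was among them, but the chosen probe sets of 3 other caspase signalling genes were: Casp4, Tnfsf10 and Cycs. How these values were made was not tested.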
